A study of Homo sapiens with 27 samples.

Results

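Between days 22 and 32 of differentiation on a laminin 323 (LN323) coating, 10 genes rose past the threshold in bulk RNA from H1 cultures. Among them were 5 lens crystallins and the epithelial genes KRT17 and LAMB3, and 0 genes fell. These calls are from edgeR and varied widely with the setting, and only KRT17 kept its call without day 32 replicate 2. DESeq2 also passed genes that fell. The comparison took 6 of the 27 libraries of the series, chosen by their labels: 3 on LN323 at day 22 and 3 on LN323 at day 32. It asks which genes changed in the last days of the protocol on this coating. Laminins are basement membrane proteins built from an alpha, a beta and a gamma chain, and LN323 is named after its chains, LAMA3, LAMB2 and LAMC3.

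H1 is an established human embryonic stem cell line. In all groups, CKI-7, an inhibitor of casein kinase, and SB431542, an inhibitor of TGF-beta and activin receptors, were given from day 2 to start neural induction. A photoreceptor differentiation medium with BDNF, CNTF, retinoic acid and the gamma-secretase inhibitor DAPT followed until the end of culture, so both days were sampled in the same late medium. The labels give Laminin 323 as the coating, whereas the growth notes name other laminins and the study's methods describe isoforms mixed with LN521, so the exact coat cannot be settled here. The libraries numbered day 20 and day 30 in their names are those of day 22 and day 32. Nothing says that the 3 libraries of a group came from separate cultures. The p-values thus measure only the spread between libraries, shared over the 18 fitted, and this may be technical. Between libraries of an LN323 group the median chi-square per gene was 7.87 to 18.1, above sampling noise. The source of this spread was not tested.

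Neural retina, pigment epithelium, lens and surface epithelium all arise around the eye during development. Neural retina and pigment epithelium come from neuroectoderm, while lens and epidermal cells come from the neighbouring surface ectoderm, and the first retinal neurons are ganglion cells. Lens fibre cells fill with crystallins, the refractive proteins of the lens, and basal keratinocytes carry keratin filaments and the laminin that anchors epithelium. Photoreceptor precursors switch on CRX and later recoverin and phototransduction genes.

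The LN323 libraries of days 22 and 32 held between 25620624 and 42655360 counts each, and 42336 of 44852 genes entered the test. Day 32 replicate 2 stood apart in direction: among the 544 genes with a mean of at least 1 CPM (counts scaled to a library of 1e+06) that were higher at unadjusted p under 0.05, it was the highest day 32 library for 430, or 79%. These 544 were 3.32% of the 16387 genes at that level. Day 32 replicate 2 was the highest day 32 library for 29.5% of all of them. Its deviations from the group mean correlated with those of the same-lane day 32 libraries on other coatings, at r = 0.679 (LN523) and 0.133 (LN521). Its root mean square log2 deviation was 0.446, against 0.532 in day 22 replicate 2 and 0.492 in day 32 replicate 1. Day 22 replicate 2 was the highest day 22 library for 40.2% of the same genes. Values without day 32 replicate 2 are therefore given beside gene lists and most of the calls. The shares of all genes printed below belong to the fit with every library. Counts of list members without day 32 replicate 2 have no such share beside them. In bulk RNA, fewer cells of a type and less RNA per cell cannot be told apart.

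With edgeR's quasi-likelihood test and Benjamini-Hochberg adjustment, 10 genes rose between day 22 and day 32, 0.0236% of those tested, and 0 fell. They were KRT17, CRYBA4, CRYBB1, CRYBA1, NUPR1, LAMB3, CRYBB2, COL14A1, CRYGS and TNC. At unadjusted p under 0.05, 835 genes were higher, 1.97% of those tested, and 264 were lower, 0.624%. The median log2 fold change over all genes tested was 0.02. DESeq2 on the same libraries passed 57 genes, 26 higher and 31 lower, and 9 of the 10 genes, all but COL14A1, were among them. KRT17 alone was past the threshold when the sequencing lane, which carries the replicate number, was left out of the model, and KRT17 alone when day 32 replicate 2 was left out. KRT17 alone also passed without day 22 replicate 1 or day 22 replicate 3, and 4 genes passed without day 22 replicate 2. The count was 32 without day 32 replicate 1 and 18 without day 32 replicate 3.

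**Figure D1:**
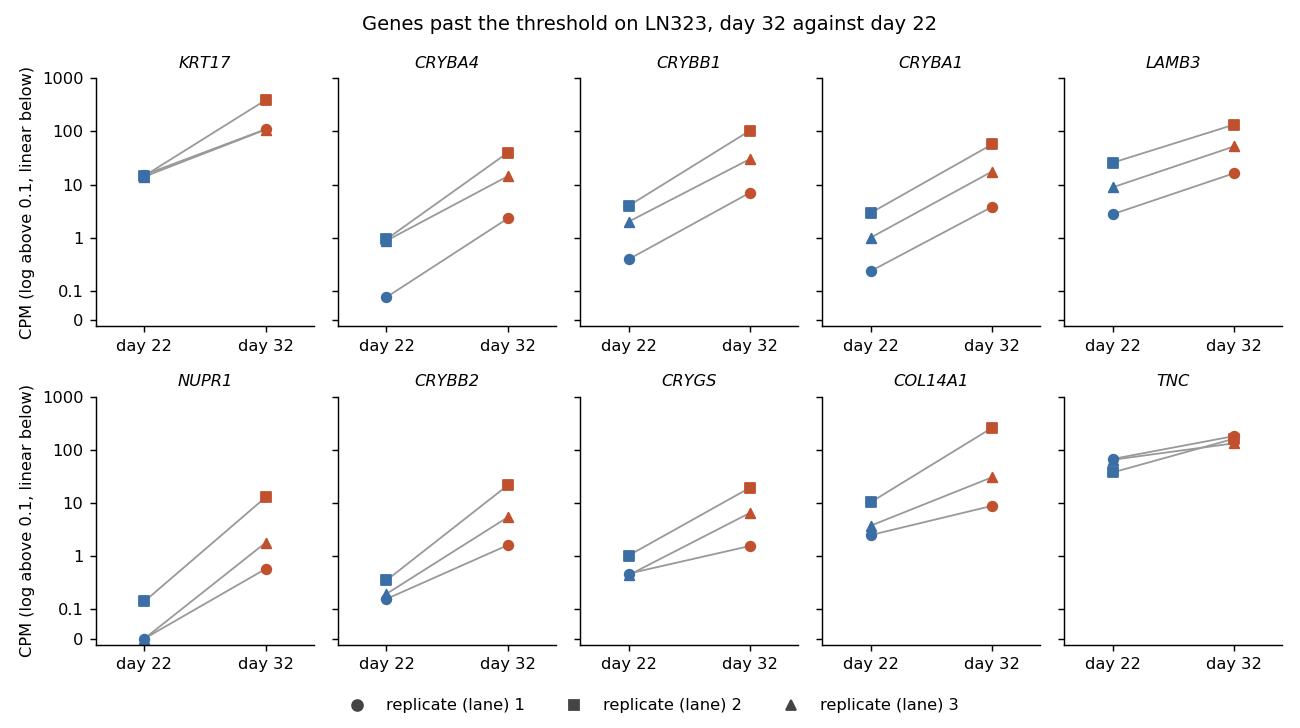
CPM of the 10 genes past the threshold in each LN323 library, at day 22 (blue) and day 32 (orange), on an axis that is logarithmic above 0.1 and linear below; lines join the libraries of 1 lane. Every line rises, and replicate 2 (squares) is the highest day 32 library for each gene but TNC.

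KRT17, an intermediate filament keratin of basal and stressed epithelium, gave the clearest rise. Its level was 15.3, 14.6 and 14.1 CPM in day 22 replicates 1, 2 and 3, and 110, 391 and 109 CPM in the corresponding day 32 libraries. The groups did not overlap, and the lowest day 32 library was several times the highest at day 22. The log2 fold change was 3.47 ± 0.33 (SE), or 11.0-fold, with an adjusted p of 9.25e-08 in edgeR. Leaving out day 32 replicate 2 gave 3.16 (edgeR, adjusted p = 3.86e-06). KRT17 lies on the minus strand of chromosome 17, at positions 41619442 to 41624842 of GRCh38. Of its longest transcript, 54.4% matched transcripts of 5 other genes, the pseudogene KRT17P1 among them, at 95% identity or more, so reads may be split or shared with these copies.

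LAMB3, the beta chain of the laminin that anchors epidermis to its basement membrane, was at 2.76, 25.8 and 8.87 CPM at day 22 and at 16.3, 134 and 52.2 CPM at day 32. The 2 groups overlapped, since day 22 replicate 2 exceeded day 32 replicate 1, but LAMB3 rose in each lane, by 2.54, 2.38 and 2.55 on the log2 scale. The fitted log2 fold change was 2.49 ± 0.44 (SE; edgeR, adjusted p = 0.0136). Without day 32 replicate 2 it was 2.49 with an adjusted p of 0.335, so its size stayed and its call did not.

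Of the 37 keratinocyte and surface ectoderm genes tested, 2 rose, KRT17 and LAMB3, and 0 fell. At unadjusted p under 0.05, 8 were higher, against 1.97% of all genes tested, and 0 lower. Lists, here and below, were chosen with earlier results of these data known, so such counts are descriptions and not a test. The median log2 fold change of the list was 0.22. With day 32 replicate 2 left out, 6 were higher at unadjusted p and the median was 0.20. TP63, the master regulator of basal epidermal cells, stood at 19.8, 39.0 and 26.4 CPM at day 22 and at 11.3, 75.6 and 45.8 CPM at day 32, a log2 fold change of 0.39 ± 0.42 (SE). The basal keratin pair KRT5 and KRT14 stayed low, at most 7.44 CPM for KRT5 and at most 0.395 CPM for KRT14 in any of the 6 libraries. KRT15 reached 149 CPM in day 32 replicate 2, against 2.95 and 14.6 CPM in the other day 32 libraries. DSP, KRT8 and KRT19, the most abundant members not past the threshold, had log2 fold changes of 0.16, -0.14 and -0.06. The 5 keratinocyte markers summed to 37.2 to 75.5 CPM at day 22 and to 126, 623 and 169 CPM at day 32, KRT17 being the largest part at day 32.

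TNC, which encodes the matrix glycoprotein tenascin C, was at 67.8, 37.7 and 65.4 CPM at day 22 and at 183, 163 and 134 CPM at day 32. Its groups did not overlap, and it was the most even of the 10 across the day 32 libraries. The log2 fold change was 1.46 ± 0.28 (SE; edgeR, adjusted p = 0.0345), and 1.46 again without day 32 replicate 2, with an adjusted p of 0.353.

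**Figure D2:**
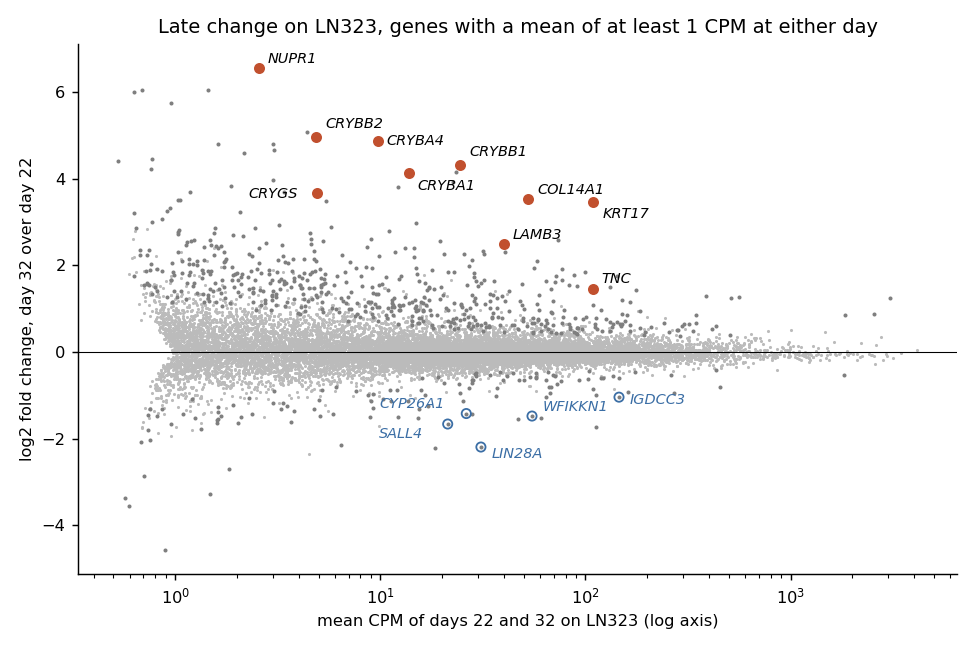
Log2 fold change on LN323 (day 32 over day 22) against the mean CPM of both days, on a log axis, for the 16387 genes with a mean of at least 1 CPM at either day. Orange points are the 10 genes past the threshold, dark grey points have an unadjusted p under 0.05, and blue circles are the 5 falls with the smallest p, none past the threshold; all 10 lie above 0.

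Lens crystallins made up 5 of the 10 genes that rose. Of the 20 lens genes tested, 5 rose, 0 fell, and 10 were higher at unadjusted p under 0.05, against 1.97% of all genes tested. Since the list was chosen with earlier results of these data known, these counts describe it and do not test it. For 9 of 20 all 3 day 32 libraries lay above all 3 of day 22, against 3.58% of all genes tested. The median log2 fold change of the list was 1.77, and 0.65 without day 32 replicate 2, when 7 were higher at unadjusted p. The 5 are beta and gamma crystallins, structural proteins of lens fibre cells: CRYBB1, CRYBA4, CRYBA1, CRYBB2 and CRYGS. CRYBB1 and CRYBA4 are neighbours on chromosome 22, 3935 bases apart on opposite strands, and are read away from each other.

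The stretches of 160 bases just before the RefSeq start of these 5 genes are shown because the genes moved together. They are given in the 5′ to 3′ direction of each gene from RefSeq, assembly GRCh38.p14, with capitals for the letters TAATCC, bound by OTX and CRX homeodomains, and TGCTGA, which occurs in the recognition element of MAF factors, on either strand. They lie at chr22:26618028-26618187 on the minus strand for CRYBB1, chr22:26621803-26621962 on the plus strand for CRYBA4, chr17:29246699-29246858 on the plus strand for CRYBA1, chr22:25219479-25219638 on the plus strand for CRYBB2 and chr3:186544381-186544540 on the minus strand for CRYGS.
CRYBB1: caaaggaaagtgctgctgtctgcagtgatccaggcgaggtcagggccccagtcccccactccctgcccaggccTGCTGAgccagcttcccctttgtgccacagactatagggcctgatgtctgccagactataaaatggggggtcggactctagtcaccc
CRYBA4: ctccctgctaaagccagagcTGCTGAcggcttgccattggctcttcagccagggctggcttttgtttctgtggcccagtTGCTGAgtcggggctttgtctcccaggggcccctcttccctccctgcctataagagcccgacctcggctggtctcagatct
CRYBA1: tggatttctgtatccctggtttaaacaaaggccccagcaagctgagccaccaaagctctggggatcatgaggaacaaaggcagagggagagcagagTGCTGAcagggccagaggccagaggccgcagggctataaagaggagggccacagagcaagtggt
CRYBB2: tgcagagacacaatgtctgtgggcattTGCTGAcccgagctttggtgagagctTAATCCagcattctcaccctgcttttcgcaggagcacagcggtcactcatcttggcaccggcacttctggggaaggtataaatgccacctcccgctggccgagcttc
CRYGS: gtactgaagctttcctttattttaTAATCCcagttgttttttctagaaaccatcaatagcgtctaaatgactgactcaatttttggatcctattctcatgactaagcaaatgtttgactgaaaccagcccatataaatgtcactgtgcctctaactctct

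In the 250 bases before the start, TGCTGA stood in 10 of the 18 lens promoters matched, 55.6%, against 14.1% of all 27305 promoters. TAATCC stood in 3 of the 18, against 5.67%, and TTTGAA, the cell cycle homology element, in 0 of the 18, against 13.6%. TGCTGA was added to the search after results were known. A match describes letters and is not a site of binding.

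CRYBB1 was at 0.389, 3.96 and 1.99 CPM in day 22 replicates 1, 2 and 3, and at 7.00, 104 and 30.2 CPM at day 32. The groups did not overlap, although replicate 1 stayed low at both days. Its log2 fold change was 4.32 ± 0.69 (SE; edgeR, adjusted p = 0.00545). CRYBA4, its divergent neighbour, was at 0.0778, 0.932 and 0.875 CPM at day 22 and at 2.29, 39.8 and 14.3 CPM at day 32, with a log2 fold change of 4.87 ± 0.74 (SE; edgeR, adjusted p = 0.00302). Both members of the pair kept the order replicate 2, replicate 3, replicate 1 at both days.

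CRYBA1 went from 0.233, 2.91 and 0.996 CPM to 3.79, 56.9 and 17.5 CPM, a log2 fold change of 4.12 ± 0.70 (SE; edgeR, adjusted p = 0.0128). CRYBB2 went from 0.156, 0.349 and 0.194 CPM to 1.61, 21.6 and 5.40 CPM, a log2 fold change of 4.95 ± 0.88 (SE; edgeR, adjusted p = 0.0154). For CRYBB2, 67.8% of the longest transcript matched other genes, mainly the pseudogene CRYBB2P1, so its value is uncertain. CRYGS, the gamma crystallin that the mature lens keeps making, went from 0.467, 1.03 and 0.437 CPM to 1.55, 19.4 and 6.50 CPM, a log2 fold change of 3.67 ± 0.67 (SE; edgeR, adjusted p = 0.0170). No day 32 library of these genes fell within the day 22 range, and replicate 2 was highest in every case. Exons of other genes on the same strand cover 26.5% of the exonic length of CRYBB2, 15.0% of CRYGS and 16.5% of NUPR1, and exons on the opposite strand 11.5% of CRYBB1 and 10.2% of KRT17. The strand setting of the counting is not given in the sources used here, so reads of such overlaps cannot be told apart.

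Without day 32 replicate 2 the log2 fold changes were 3.45 for CRYBB1, 3.45 for CRYBA4, 3.54 for CRYBA1, 4.09 for CRYBB2 and 2.51 for CRYGS, with adjusted p from 0.353 to 1. The direction stayed and the calls did not. CRYAA, an alpha crystallin and chaperone of the lens, was at 3.19 to 6.36 CPM at day 22 and at 12.2, 71.0 and 18.5 CPM at day 32, a log2 fold change of 2.57 that missed the threshold (edgeR, adjusted p = 0.101). CRYBB3 had a log2 fold change of 1.90. CRYAB, a stress chaperone made well beyond the lens, differed widely among libraries of 1 day, with 121, 9.60 and 45.6 CPM at day 22, and had a log2 fold change of 0.02. MIP, the water channel that marks fibre cells, reached at most 4.45 CPM, in day 32 replicate 2. The 5 lens markers summed to 4.67, 15.2 and 9.11 CPM at day 22 and to 25.0, 255 and 73.3 CPM at day 32.

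COL14A1, a fibril-associated collagen of connective tissue, was at 2.49, 10.3 and 3.74 CPM at day 22 and at 8.83, 260 and 30.5 CPM at day 32. Most of its signal sat in day 32 replicate 2, and day 32 replicate 1 lay within the day 22 range. The log2 fold change was 3.52 ± 0.64 (SE; edgeR, adjusted p = 0.0170), and 2.75 with an adjusted p of 0.916 without that library. NUPR1, a stress-induced nuclear protein, had 0, 6 and 0 counts at day 22, and stood at 0.573, 12.8 and 1.79 CPM at day 32. Its fitted log2 fold change of 6.55 ± 1.14 (SE; edgeR, adjusted p = 0.0136) starts from nearly no counts and depends on them. Over the alternative fits its log2 fold change ran from 1.62 to 8.90.

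Mesenchyme and fibrous matrix genes leaned the same way as a list, without a call. Of 26 tested, 0 passed the adjusted threshold. At unadjusted p under 0.05, 18 were higher and 0 lower, against 1.97% and 0.624% of all genes tested. The median log2 fold change was 1.02, and 0.54 without day 32 replicate 2, when 5 were higher at unadjusted p. For 4 of the 26 all 3 day 32 libraries lay above all 3 of day 22, against 3.58% of all genes tested. COL1A2, a fibrillar collagen chain, was at 1737, 1473 and 1798 CPM at day 22 and at 2372, 5780 and 2173 CPM at day 32, a log2 fold change of 0.88 ± 0.24 (SE; edgeR, adjusted p = 0.410). COL3A1 and FN1, the other most abundant members, had log2 fold changes of 1.25 and 0.36. DCN, a small proteoglycan of connective tissue, was at 25.3 to 77.1 CPM at day 22 and at 31.1, 536 and 146 CPM at day 32. PDGFRB, a receptor of mesenchyme and pericytes, gave the opposite picture among libraries, with its highest value of 511 CPM in day 32 replicate 1. The 5 mesenchyme markers summed to 1674 to 2749 CPM at day 22 and to 2063, 11411 and 4514 CPM at day 32.

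**Figure D3:**
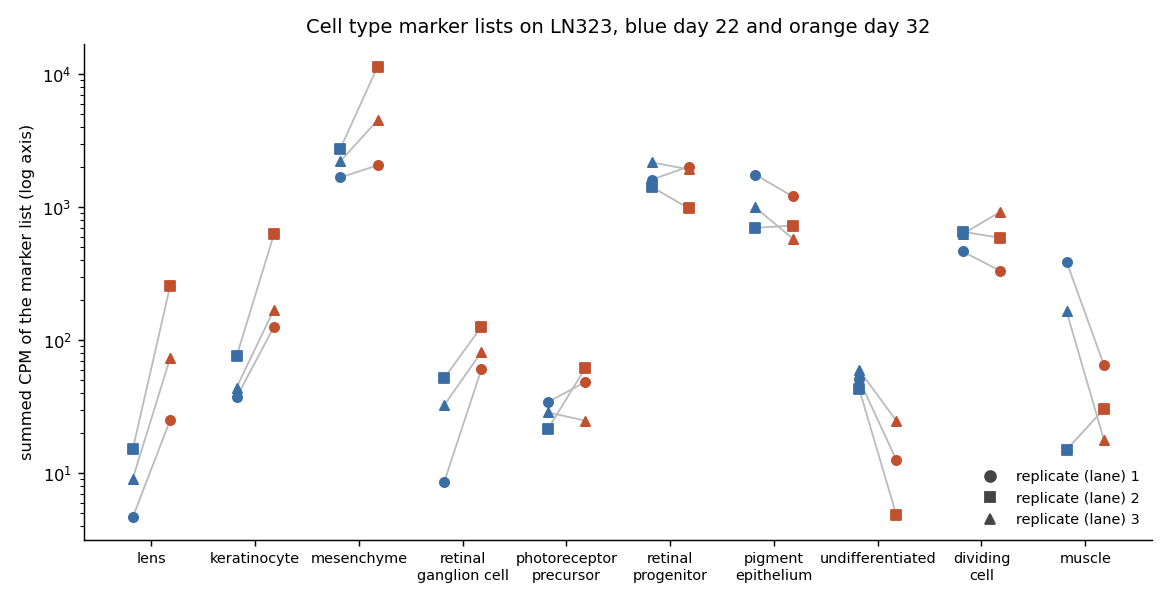
Summed CPM, on a log axis, of 10 marker lists in each LN323 library, with lines joining the day 22 (blue) and day 32 (orange) libraries of 1 lane. Lens and keratinocyte sums are higher at day 32 in every lane, from 4.67 to 15.2 CPM up to 25.0 to 255 CPM for lens. The photoreceptor precursor sum goes from 34.2, 21.4 and 28.7 CPM to 48.3, 61.5 and 24.8 CPM in lanes 1, 2 and 3.

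Genes of retinal ganglion cells, the output neurons of the retina, were higher at day 32 with less weight on 1 library. Of 28 tested, 0 passed the adjusted threshold. At unadjusted p under 0.05, 16 were higher and 0 lower, against 1.97% and 0.624% of all genes tested. For 15 the 3 day 32 libraries lay above all 3 of day 22, against 3.58% of all genes tested. The median log2 fold change was 1.27, and 1.02 without day 32 replicate 2, when 12 were higher at unadjusted p. ATOH7, the factor that makes progenitors competent to form ganglion cells, was at 1.63, 17.5 and 13.4 CPM at day 22 and at 43.4, 69.8 and 43.5 CPM at day 32. Its groups did not overlap, and its log2 fold change was 2.32 ± 0.62 (SE; edgeR, adjusted p = 0.410).

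STMN2, a microtubule regulator of growing axons, was at 9.57, 20.1 and 10.8 CPM at day 22 and at 51.9, 100 and 52.0 CPM at day 32, a log2 fold change of 2.31 ± 0.57 (SE; edgeR, adjusted p = 0.235). Day 32 was again above day 22 in every library. The transcription factor POU4F2 went from 0.0778, 2.28 and 2.11 CPM to 7.14, 11.4 and 8.58 CPM, a log2 fold change of 2.57. Its relative POU4F1 stayed at or below 0.684 CPM in all 6 libraries, ISL1 at or below 2.42 CPM, and SNCG had a log2 fold change of 0.67. ROBO2 and DPYSL3, axon guidance genes, had log2 fold changes of 0.98 and 0.45. Among members chosen after their values were seen, GAP43, ELAVL4 and NEFL, genes of axon growth, neuronal RNA binding and neurofilament, had log2 fold changes of 1.85, 3.49 and 2.19, and 1.88, 3.49 and 2.39 without day 32 replicate 2.

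Proneural factors, which push progenitors out of the cycle toward neurons, had a median log2 fold change of 1.16 over 12 genes tested. Of these, 6 were higher at unadjusted p under 0.05, against 1.97% of all genes tested, and 0 passed the adjusted threshold. Without day 32 replicate 2 the median was 0.86 and 2 were higher at unadjusted p. ATOH7 is a member of this list too. INSM1, which acts as precursors leave the cycle, had a log2 fold change of 0.59. NEUROD1, shared by photoreceptor and other precursors, was at 0.0778, 5.29 and 2.84 CPM at day 22 and at 6.54, 15.1 and 7.13 CPM at day 32, a log2 fold change of 1.74.

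The libraries are labelled as photoreceptor progenitors, and their photoreceptor markers were low at both days. CRX, the homeodomain factor of photoreceptor precursors, was at 7.08, 1.49 and 5.05 CPM at day 22 and at 8.03, 9.78 and 3.11 CPM at day 32. The days overlapped, and the log2 fold change was 0.64 ± 0.50 (SE; edgeR, adjusted p = 1). RCVRN, which encodes recoverin, had 2, 8 and 0 counts at day 22 and 8, 4 and 8 at day 32, too few to show a difference at this depth. NRL, the rod factor, stood between 0.777 and 2.12 CPM with a log2 fold change of -0.08. PRDM1 and OTX2, which act upstream in precursors, had log2 fold changes of 1.51 and 0.28.

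Of 17 photoreceptor fate factors tested, 0 passed, and the median log2 fold change was 0.06. At unadjusted p under 0.05, 5 were higher and 2 lower, against 1.97% and 0.624% of all genes tested. Without day 32 replicate 2, 3 were higher and 1 lower, with a median of 0.012. THRB, the thyroid hormone receptor of cones, was at 32.3, 42.6 and 45.6 CPM at day 22 and at 85.1, 67.3 and 81.8 CPM at day 32, a log2 fold change of 0.97 ± 0.34 without overlap (SE; edgeR, adjusted p = 1). SAMD11 and NR2F1 had log2 fold changes of 0.05 and 0.19. Of 37 phototransduction and structure genes tested, 4 were higher and 1 lower at unadjusted p under 0.05, against 1.97% and 0.624% of all genes tested. Their median was 0.30, and counts and median were the same without day 32 replicate 2. Only 13 of the 37 had a mean of at least 1 CPM at either day, so the median mostly describes genes with few counts. RBP3, the retinoid carrier secreted by photoreceptors, was at 1.24, 3.64 and 0.777 CPM at day 22 and at 5.85, 11.2 and 2.74 CPM at day 32, a log2 fold change of 1.82 ± 0.65 (SE; edgeR, adjusted p = 1). IMPG2, of the matrix around photoreceptors, had a log2 fold change of 0.73.

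Retinal progenitor genes were measured at both days. RAX, an eye field factor, was at 99.9, 268 and 244 CPM at day 22 and at 164, 79.4 and 287 CPM at day 32. RAX and PAX6, another eye field factor, had log2 fold changes of -0.46 and 0.06, and MITF, of pigment epithelium, -0.17. Day 32 replicate 2 was the lowest day 32 library for RAX and MITF. Per length, RAX averaged 187 TPM, which divides by gene length, at day 32 and CRX 4.69 TPM. Of 20 eye field genes tested, 1 was higher and 1 lower at unadjusted p under 0.05, against 1.97% and 0.624% of all genes tested. The median log2 fold change of the list was -0.24. Without day 32 replicate 2 the median was on the other side of 0, at 0.0081, with the same counts. None of the 40 cell division genes passed either threshold in edgeR, and their median was -0.11, or -0.18 without day 32 replicate 2. TOP2A, of dividing cells, was at 319, 397 and 401 CPM at day 22 and at 219, 393 and 600 CPM at day 32, an order that differed by lane.

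No gene fell past the threshold in edgeR, and the 5 lower genes with the smallest p are given by their values. LIN28A, an RNA-binding protein of pluripotent and early embryonic cells, was at 48.2, 42.3 and 58.4 CPM at day 22 and at 9.98, 3.66 and 23.1 CPM at day 32, a log2 fold change of -2.20 ± 0.46 (SE; edgeR, adjusted p = 0.0957). IGDCC3, a membrane protein of the immunoglobulin superfamily, had -1.04 on the same scale, and its adjusted p was 0.101 by edgeR against 0.0454 by DESeq2. SALL4, a zinc finger factor of stem and early progenitor cells, had a log2 fold change of -1.66, CYP26A1, an enzyme that clears retinoic acid, -1.42, and WFIKKN1, a secreted binder of TGF-beta ligands, -1.48. For each of the 5, all 3 day 32 libraries lay below all 3 of day 22, as for 1.75% of all genes tested.

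The timing genes around LIN28A, which hold cells in an early developmental state, were lower as a list without a call. Of 10 tested, 0 passed the adjusted threshold. At unadjusted p under 0.05, 6 were lower and 0 higher, against 0.624% and 1.97% of all genes tested. All 10 log2 fold changes were below 0 (47.9% of all genes tested were). For 6 the day 32 libraries lay below those of day 22, against 1.75% of all genes tested. The median was -0.63, and -0.46 without day 32 replicate 2, when 3 were lower at unadjusted p. HMGA1, a chromatin protein of growing cells, was at 520, 466 and 742 CPM at day 22 and at 378, 225 and 397 CPM at day 32, a log2 fold change of -0.80 ± 0.24 (SE; edgeR, adjusted p = 0.682). HMGA2 and IGF2BP1 had log2 fold changes of -0.18 and -0.24. LIN28B and TRIM71, chosen after their values were seen, had log2 fold changes of -0.74 and -0.95. Of 18 pluripotency genes, 2 were lower at unadjusted p, LIN28A and SALL4, and 0 higher, against 0.624% and 1.97% of all genes tested. Their median log2 fold change was -0.45, and 8 of the 18 had a mean of at least 1 CPM at either day. Leaving out day 32 replicate 2 gave 2 lower and 1 higher. POU5F1 and NANOG, core factors of undifferentiated cells, stood at most at 2.47 and 0.311 CPM in any library.

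The cells' own laminin genes split by chain. Of 12 chains tested, LAMB3 rose. At unadjusted p under 0.05, 5 were higher and 1 lower, against 1.97% and 0.624% of all genes tested. Without day 32 replicate 2 these counts were 4 and 1. LAMA3, the alpha chain of LN323 and of epithelial laminin, was at 3.66, 8.58 and 3.21 CPM at day 22 and at 6.94, 26.0 and 13.0 CPM at day 32, a log2 fold change of 1.57 ± 0.36 (SE; edgeR, adjusted p = 0.168). It was 1.54 without day 32 replicate 2. LAMB2 was between 468 and 814 CPM with a log2 fold change of 0.34, and LAMC3 between 3.35 and 8.75 CPM with 0.26. LAMC1 and LAMB1, the common partner chains, had log2 fold changes of 0.04 and -0.18. LAMA1, an early embryonic alpha chain, is named after a look at its values and had a log2 fold change of -0.91.

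The remaining lists had medians between -0.08 and 0.49 and no member past the adjusted threshold. They covered optic stalk, Notch, horizontal and amacrine, bipolar, glial, presynaptic, pigment, neural crest, muscle, vascular and blood, laminin receptor, retinoic acid, gp130, WNT, BMP, FGF, glycolysis, cholesterol and cilium genes. CABP5, a bipolar cell gene, and MYOD1, a muscle factor, had 0 counts in all 6 libraries. The sum of the muscle markers differed mostly between libraries of 1 day, at 389, 15.0 and 165 CPM at day 22 and at 65.2, 30.3 and 17.8 CPM at day 32.

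The same late interval was sequenced on the other 2 coatings, labelled LN523 and LN521, in 3 libraries a group. In the same fit, 0 genes differed in late change between LN323 and LN523 or between LN323 and LN521 in edgeR, with 587 genes (1.39%) and 1246 genes (2.94%) at unadjusted p under 0.05. DESeq2 called 90 and 89 genes. Both contrasts share the LN323 libraries.

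KRT17 had late log2 fold changes of 3.47 on LN323, 2.82 on LN523 and 5.50 on LN521, and LAMB3 2.49, 2.03 and 3.54. The KRT17 difference from LN521 was -2.04 (95% interval -2.88 to -1.19; edgeR, adjusted p = 0.764). Without day 22 replicate 2 it was -2.47 and past the threshold (edgeR, adjusted p = 0.0130), as it was at -2.64 without replicate 2 at both days (edgeR, adjusted p = 0.0081). Leaving out both days was chosen after seeing the data. In some other settings the KRT17 difference missed the threshold, as it did with all libraries. CRYBB1 had 4.32, 4.40 and 1.39 and CRYBA4 4.87, 3.35 and 1.08 on the same 3 coatings. CRYBB2, with 4.95, 6.64 and 0.32, differed from LN521 by 4.63 (95% interval 2.30 to 6.96), and CRYBA4 by 3.78 (1.86 to 5.71), neither past the threshold. Genes with an interval, here and below, were named for a small p of the difference. The intervals are not adjusted for that choice. CRYGS had 3.67, 0.98 and 0.29, and its difference from LN523 was 2.69 (95% interval 0.97 to 4.42; edgeR, adjusted p = 1).

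RBP3 and ATOH7 had their smallest late log2 fold changes on LN323, which are changes and not levels. RBP3 had 1.82 on LN323, 5.36 on LN523 and 6.03 on LN521, with differences of -3.54 (95% interval -5.35 to -1.73) and -4.21 (-6.17 to -2.25). ATOH7 had 2.32, 5.08 and 5.95, and its difference from LN521 was -3.63 (-5.38 to -1.88). Against LN523, HES6, a neurogenic repressor of HES1, differed by -2.64, VXN, a regulator of retinal neurogenesis, by -3.27, INSM1 by -1.52 and WDR72 by -3.03. NUPR1, TPM1 and EDN3 differed from LN523 by 4.23, 0.84 and 2.32. Against LN521, OXTR and IGFBP3 differed by -1.56 and -1.87, and P2RX3, LRP1 and BAHCC1 by 3.81, 1.06 and 1.34. None of these passed the adjusted threshold in edgeR with all 18 libraries. With DESeq2, WDR72 passed against LN523 (adjusted p = 0.0217) and BAHCC1 against LN521 (adjusted p = 0.0175). Over all alternatives the adjusted p of these differences reached 1, and that of the KRT17 difference too. CRX had 0.64, 2.20 and 0.86, and LIN28A -2.20, -2.53 and -3.06.

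**Figure D4:**
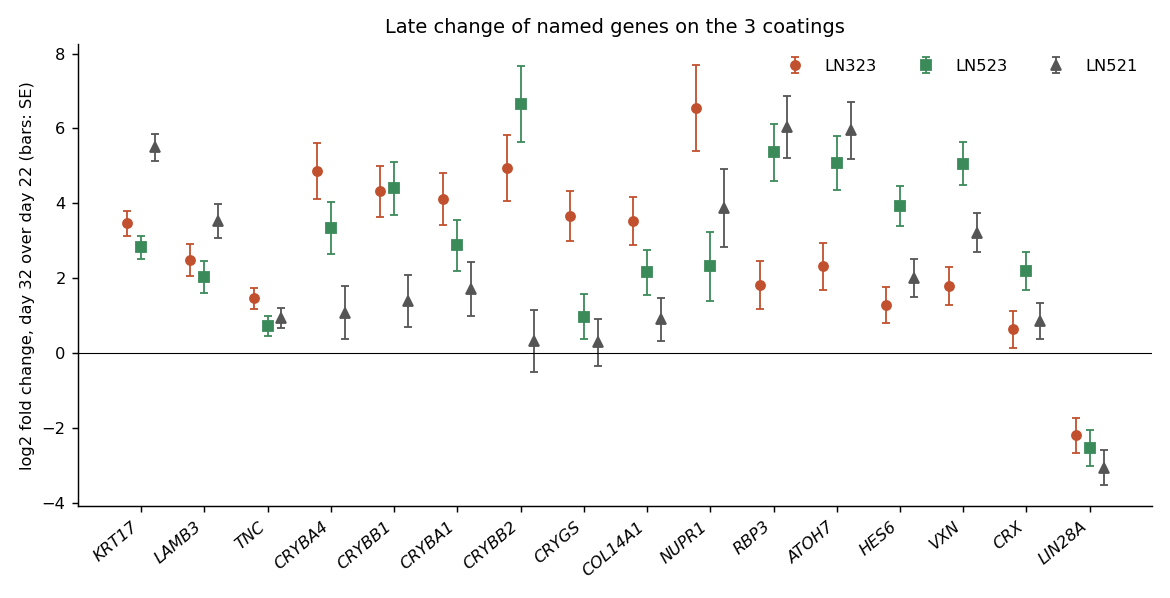
Late log2 fold change (day 32 over day 22) of 16 named genes on LN323, LN523 and LN521, with bars for the SE of the edgeR fit. The crystallins lie at 3.67 to 4.95 on LN323 and at 0.29 to 1.71 on LN521. On LN523, CRYBB1 and CRYBB2 lie above their LN323 values, and CRYBA4 and CRYGS below them. RBP3 and ATOH7 lie at 1.82 and 2.32 on LN323 and above 5 on the other 2 coatings. No gene differed in late change between LN323 and either other coating past the threshold in edgeR.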

How the data were processed

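Bulk RNA was sequenced as paired 150 bp reads from TruSeq stranded total RNA libraries. Per the study's methods and the submitters' processing notes, the authors aligned reads to GRCh38 with STAR 2.5.2b and counted them per gene with featureCounts 1.5.1, rounded the counts and removed ribosomal and mitochondrial genes; the strand setting is not given in the sources used here. The authors deposited whole-number counts per gene and a TPM table for the 27 libraries. Replicate numbers are sequencing lanes, and no column belonged to another sample.

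From the deposited counts, edgeR 4.0.16 in R 4.3.3 fitted the 18 libraries of days 22 and 32 on 3 coatings (6 groups of 3), with lane as a block, TMM normalization, genes with more than 1 count in sum, a quasi-likelihood test and Benjamini-Hochberg adjustment at 0.05. These 18 libraries share 1 estimate of the spread, since 3 against 3 with a block leaves few degrees of freedom. The study's model used lane, which the labels name, so the block is in the main model. Deviations of same-lane LN323 libraries at days 22 and 32 correlated at r = 0.573, 0.341 and -0.0854 over 16093 genes. Between same-lane LN323 and LN523 libraries of the same day r ran from 0.426 to 0.787. Between LN323 and LN521 it ran from -0.310 to 0.390. CPM scales TMM-adjusted library totals to 1e+06. SE is the absolute log2 fold change divided by the square root of the edgeR F statistic. The 95% intervals follow from this SE by normal theory. Gene symbols and positions come from GENCODE 44 (43052 of 44852 identifiers matched) and shared transcripts from blastn 2.17.0+. Alternatives were DESeq2 1.42.0, limma 3.58.1 on log2(TPM + 1) and log2(TPM + 0.1), other filters, scaling and sets of libraries, and leaving out each library. Scripts were tested on simulated data.

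Named genes are the largest calls with a mean of at least 1 CPM and 1 sign in all lanes, the 5 smallest p where under 5 passed, called and most abundant members of the lists described by member, the chains of LN323, and markers the study follows. Members and lists were chosen with earlier results of these data known. A comparison table of samples was not used. A few named items are not reported here.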

Additional observations from a re-analysis of the deposited data

How the results depend on the processing

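The count of 10 genes stayed at 9 to 10 with RLE size factors or with no filter on low counts, and moved elsewhere. DESeq2 passed 57, a fit of all 27 libraries 19, the 9 LN323 libraries 277 and only the 6 LN323 libraries 350, of which the last 3 held all 10. It was 1 with edgeR's own low-count filter and 0 to 2 with limma on log2(TPM + 1) or log2(TPM + 0.1), none of them among the 10. Leaving out the replicate block gave 1, KRT17. Leaving out 1 LN323 library gave 1 to 32, and leaving out replicate 2 at both days, chosen after seeing the data, gave 1, KRT17 again. The cause of these shifts was not tested, beyond fewer genes or libraries in the fits named. Differences of the late change between coatings rose from 0 to 90 (LN523) and 89 (LN521) in DESeq2, to 1 (LN523) and 2 (LN521) with limma on log2(TPM + 0.1), to 1 (LN521) with limma without a filter, and to 0 to 1 (LN521) without 1 LN323 replicate.

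Some named genes, none of them past the threshold, changed direction when libraries were left out. Their log2 fold changes without 1 LN323 library, or without replicate 2 at both days, ran from -1.14 to 1.27 (CRYAB), -0.30 to 1.19 (CRX), -0.47 to 0.023 (IGF2BP1), -0.12 to 0.72 (FN1), -0.39 to 0.074 (HMGA2), -0.59 to 1.29 (ISL1), -0.40 to 0.22 (KRT19), -0.57 to 0.065 (LAMB1), -0.11 to 0.11 (LAMC1), -0.027 to 0.67 (LAMC3), -0.58 to 0.10 (MITF), -0.26 to 0.27 (NRL), -0.40 to 0.71 (OTX2), -0.19 to 0.28 (PAX6), -2.80 to 0.91 (POU4F1), -0.43 to 0.72 (POU5F1), -0.94 to 0.39 (RAX), -0.33 to 0.27 (SAMD11), -0.041 to 1.19 (SNCG), -0.17 to 0.31 (TOP2A), and -0.090 to 0.78 (TP63). CRX and IGF2BP1 changed direction only without replicate 2 at both days.
Without the replicate block KRT19 was 0.088, POU4F1 -0.15 and CRYAB -0.58. CRYAB was -0.000963 with RLE, -0.24 with all 27 libraries, -0.25 with the 9 and -0.15 with the 6 LN323 libraries, and -0.034, -0.021 and -0.034 with limma. POU4F1 was -0.022, -0.49 and -1.01 in those 3 sets of libraries and -0.054, -0.48 and -0.054 with limma, SAMD11 was -0.0032 and -0.0087 with the 9 and the 6 LN323 libraries, and TOP2A -0.0031 with the 6.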
